A study of Mus musculus with 6 samples.

Results

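The genes described here encode matrix metalloproteinases (MMPs), proteinases of the ADAMTS family and the tissue inhibitors of metalloproteinases (TIMPs). They were taken from the deposited gene table as every protein-coding gene whose GENCODE symbol is Mmp with a number (and an optional a or b), Timp with 1 digit or Adamts with a number. The rule used names only and found 45 genes among 52550 rows, of which 22 were Mmp, 19 Adamts and 4 Timp genes. Mmp1a was left out because the annotation types it as a polymorphic pseudogene. RNA of 6 hearts was sequenced, 3 from lncRNA-DRR-/- mice (KO), which lack a long noncoding RNA, and 3 from wild-type mice (WT). All 6 were C57BL/6 mice whose left anterior descending coronary artery had been tied off for good at 8 weeks of age. They were 10 weeks old at harvest, which was 2 weeks after the ligation. The samples hold no unoperated or sham heart, so each comparison is KO against WT within infarcted tissue.

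MMPs and ADAMTS proteinases are zinc enzymes that are made as inactive proforms and cut proteins of the extracellular matrix once the propeptide is removed. MMPs between them degrade collagens, gelatin, elastin and fibronectin, while ADAMTS proteinases cut proteoglycans such as versican and aggrecan, trim procollagens or cleave von Willebrand factor. TIMPs bind the catalytic site and block it. In an infarct these enzymes clear the dead muscle and remodel the scar; neutrophils carry stored collagenase and gelatinase, macrophages make the metalloelastase, and fibroblasts make much of the rest.

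Expression values were FPKM, fragments scaled by transcript length and library size, which allow levels to be compared between genes. The depth, estimated from the most frequent value of FPKM times length among single-transcript genes, was about 5189000 to 9398000 fragments per library. The deleted RNA was not matched to a row and is not analysed here, so it gives no check of the genotype labels. KO replicate 3 carried Xist at 25.6 FPKM and Ddx3y at 0.028 FPKM, which reads as female, while the other 5 libraries had Ddx3y between 13.0 and 16.2 FPKM and read as male. The clock-driven gene Dbp stood at 40.5, 36.8 and 28.6 FPKM in KO hearts, against 2.29, 1.70 and 1.95 FPKM in WT hearts, and no time of day is given for any heart, so genotype and time of harvest cannot be told apart for any gene. All 8 cardiomyocyte markers were detected, with summed levels of 7543 to 11650 FPKM in KO hearts and 9421 to 12040 FPKM in WT hearts, and the 3 lung markers were listed at 0 in every library. Log2 differences are KO minus WT on the scale of log2(FPKM + 0.5), which understates changes of low genes, with their standard errors (SE) from limma and n = 3 per group.

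Of the 45 genes, 30 passed the filter on low values, 0.5 FPKM or above in no fewer than 3 libraries, and were tested among 14656 genes. Adamts1 was the 1 member called at an adjusted p under 0.05, and it rose in KO hearts. That is 3.33% of the tested members, beside 0.273% of all tested genes called as higher. No member was called as lower by limma, beside 0.102% of all tested genes. At an unadjusted p under 0.05 the members numbered 2 on the higher side, Adamts1 and Timp3, and 4 on the lower side, Adamts4, Mmp8, Mmp9 and Mmp15. These are 6.67% and 13.3% of the tested members, where 3.8% and 4.68% of all tested genes lay on the higher and the lower side at that threshold. In the same 6 genes the KO and WT libraries did not overlap on scaled FPKM. Over all tested genes 6.53% were higher and 7.49% lower in every KO library than in any WT library. The other 24 tested members had adjusted p from 0.741 to 0.986. With KO replicate 3 left out, 8 members had an unadjusted p under 0.05, the same number as without WT replicate 1. Over the 30 tested members the median log2 difference was 0.08, with 18 above 0 and 12 below, beside a median of -0.004 and 49.3% above 0 over all tested genes.

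**Figure D1:**
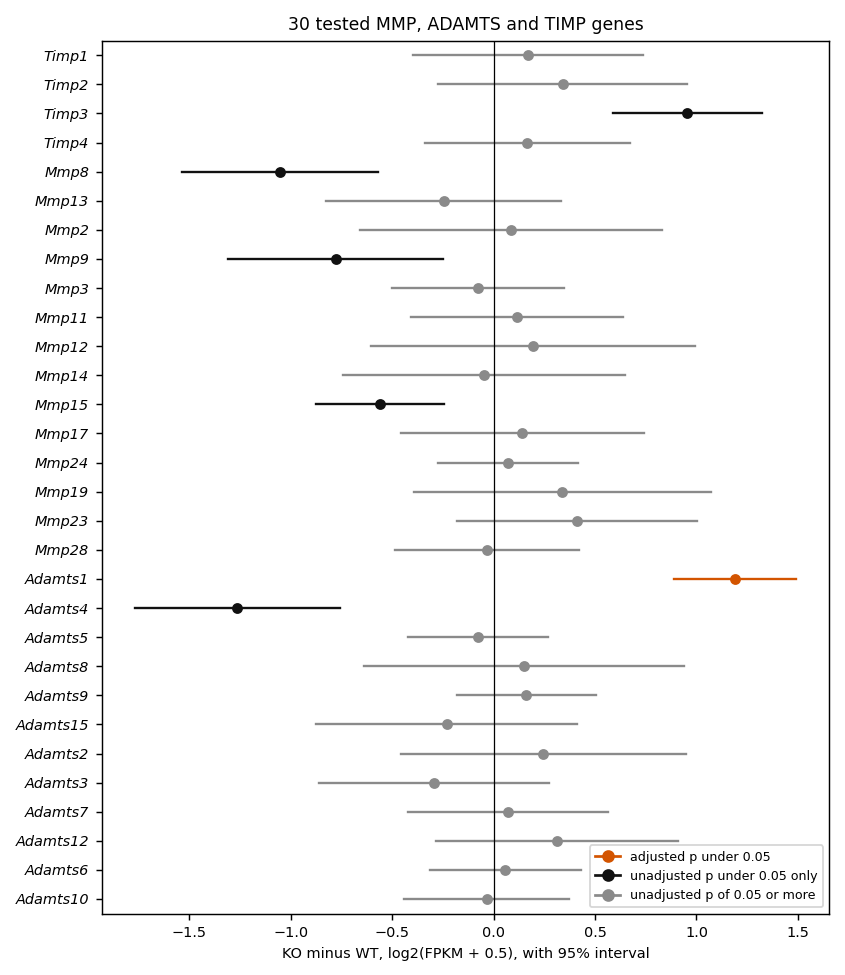
Log2 difference (KO minus WT) of each of the 30 tested members with its 95% interval, in order of enzyme class from top to bottom. Adamts1, at 1.19, is the 1 member with an adjusted p under 0.05, and Timp3, Adamts4, Mmp8, Mmp9 and Mmp15 have intervals away from 0 at the unadjusted level only.

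The promoter windows of 4 of these 6 genes are shown because they are the members with the largest differences for which a window was at hand. Each runs from 250 bases before to 50 bases after the start of the gene in RefSeq (GRCm38.p6), 5′ to 3′ on the strand of the gene. Capitals mark letters of the motifs searched on both strands. Adamts1 (chr16:85803064-85803363, minus strand) has 3 GC boxes (GGGCGG), which begin 147, 76 and 25 bases before the start, and a TATA motif (TATAAA) 32 bases before it. Timp3 (chr10:86300162-86300461, plus strand) has 2 GC boxes on the reverse strand, and Mmp15 (chr8:95352046-95352345, plus strand) has 1. In the Mmp8 window (chr9:7558179-7558478, plus strand) the 1 match was a TATA motif read on the reverse strand, 3 bases before the start.
Adamts1: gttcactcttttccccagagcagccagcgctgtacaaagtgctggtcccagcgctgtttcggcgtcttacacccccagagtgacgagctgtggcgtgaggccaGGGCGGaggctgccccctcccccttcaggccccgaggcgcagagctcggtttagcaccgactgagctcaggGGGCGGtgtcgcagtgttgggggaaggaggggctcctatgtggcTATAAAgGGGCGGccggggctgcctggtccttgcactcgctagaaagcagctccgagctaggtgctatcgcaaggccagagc
Timp3: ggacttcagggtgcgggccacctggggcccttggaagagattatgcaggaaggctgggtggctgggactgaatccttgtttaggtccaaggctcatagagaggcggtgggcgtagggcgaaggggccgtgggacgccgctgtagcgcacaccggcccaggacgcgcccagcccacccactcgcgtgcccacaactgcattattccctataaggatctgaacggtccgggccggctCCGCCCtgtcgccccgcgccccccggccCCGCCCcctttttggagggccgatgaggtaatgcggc
Mmp8: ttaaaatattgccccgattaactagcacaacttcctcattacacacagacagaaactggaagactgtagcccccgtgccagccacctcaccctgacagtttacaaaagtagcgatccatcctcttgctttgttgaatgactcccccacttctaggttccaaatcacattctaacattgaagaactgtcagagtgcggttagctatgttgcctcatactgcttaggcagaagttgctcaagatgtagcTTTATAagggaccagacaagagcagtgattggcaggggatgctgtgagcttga
Mmp15: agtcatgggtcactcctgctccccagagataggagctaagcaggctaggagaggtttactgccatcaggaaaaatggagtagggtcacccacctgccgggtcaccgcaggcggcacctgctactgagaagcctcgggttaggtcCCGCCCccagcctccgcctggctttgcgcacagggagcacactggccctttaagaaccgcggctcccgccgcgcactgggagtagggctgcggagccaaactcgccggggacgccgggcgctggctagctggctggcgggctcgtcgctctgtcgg

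Windows were at hand for 31 of the 45 members, 34 windows in all, and none of the 34 held the cyclic AMP response element TGACGTCA or the D-box TTATGTAA that DBP binds, motifs found in 1.79% and 0.938% of all 32851 promoter windows. The E-box CACGTG was in 2 of the 34, those of Adamts17 and Mmp7, and in 7.15% of all windows. The GC box was in 18 of the 34 (52.9%) and in 35.7% of all windows, and TATAAA in 10 of the 34 (29.4%) and in 13.6% of all. TGACTCA, the AP-1 motif long studied in collagenase and stromelysin promoters, was in 6 of the 34 (17.6%) and in 5.2% of all windows. The 6 genes are Mmp3, Mmp7, Mmp10, Mmp12, Mmp13 and Mmp1b, all of the same cluster on chromosome 9. The motif was absent from another window of Mmp12 (chr9:7344147-7344446) and of Mmp7 (chr9:7692091-7692390). The windows of Mmp8, Mmp20 and Mmp27, of the same cluster, did not hold it either. The 6 motifs begin 35 to 93 bases before the start used for their window. They are shown with 15 bases on either side, the motif in capitals (TGAGTCA is its other strand), because the same letters recur at a like distance in neighbouring genes. Except on Mmp1b, which lies on the minus strand, all are on the plus strand; the stretches are chr9:7445761-7445797 for Mmp3, chr9:7272464-7272500 for Mmp13, chr9:7347315-7347351 for Mmp12, chr9:7502264-7502300 for Mmp10, chr9:7692012-7692048 for Mmp7 and chr9:7388098-7388134 for Mmp1b.
Mmp3: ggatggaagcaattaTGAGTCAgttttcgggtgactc
Mmp13: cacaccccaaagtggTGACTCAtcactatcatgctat
Mmp12: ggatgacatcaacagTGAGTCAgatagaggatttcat
Mmp10: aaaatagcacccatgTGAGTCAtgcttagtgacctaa
Mmp7: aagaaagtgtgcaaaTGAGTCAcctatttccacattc
Mmp1b: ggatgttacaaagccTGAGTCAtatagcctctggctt

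The levels of the family spanned from 0 to over 200 FPKM. Timp2, Timp3, Mmp2 and Timp1 were the 4 members with a mean of at least 50 FPKM in either group. The Timp genes and Mmp2 together made up 69.4% to 74.4% of the summed FPKM of the 45 genes in KO hearts and 67.1% to 70.6% in WT hearts. Below them came Adamts2, Adamts1, Mmp15, Mmp14, Mmp11 and Mmp23, with means between 10.3 and 26.9 FPKM in each group. Mmp3, Mmp12, Mmp19, Timp4, Adamts5 and Adamts10 had means between 4.48 and 9.64 FPKM. The remaining 14 tested members had means under 5 FPKM in both groups. Another 10 members did not pass the filter but had a value above 0 in some library, none of them over 0.899 FPKM. These were Mmp10, Mmp16, Mmp25, Mmp27, Adamts14, Adamts16, Adamts17, Adamts18, Adamts19 and Adamts20. Mmp1b, Mmp7, Mmp20, Mmp21 and Adamts13, the von Willebrand factor-cleaving proteinase that is made in the liver, were listed at 0 in all 6 libraries.

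**Figure D2:**
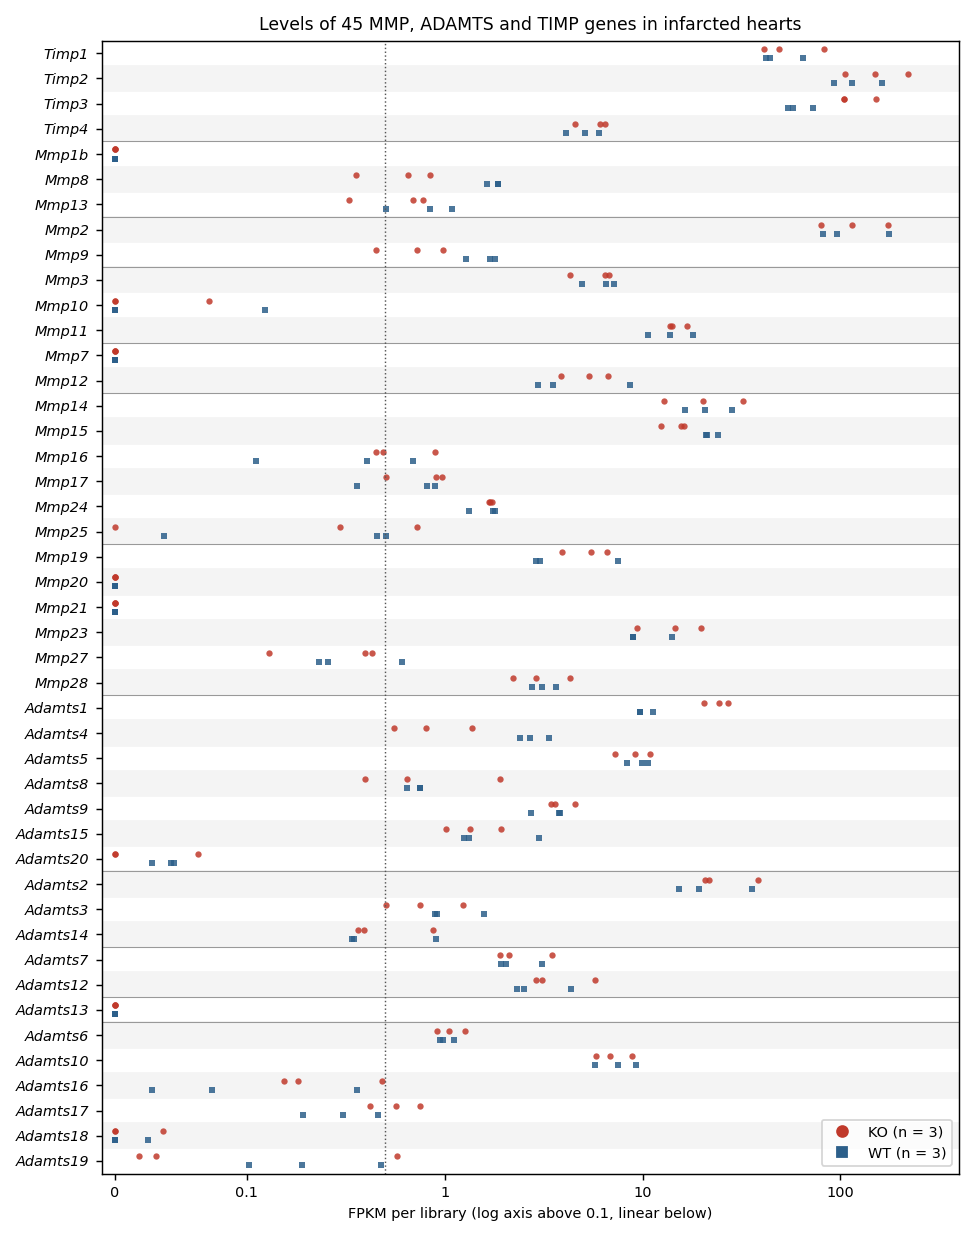
FPKM of all 45 members in each library (circles KO, squares WT, n = 3 each) on an axis that is logarithmic above 0.1 and linear below, grouped by enzyme class; the dotted line marks the 0.5 FPKM of the filter. The libraries of both groups overlap for most members, and 5 members sit at 0 in all 6 libraries.

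Timp3 was the 1 inhibitor gene whose KO and WT libraries did not overlap. Timp3, whose product is bound to the matrix and also inhibits several ADAM and ADAMTS proteinases, had 104, 152 and 104 FPKM in KO hearts, against 72.9, 57.6 and 54.5 FPKM in WT hearts. Every KO library lay above every WT library, and the ratio of the means was 1.95. The log2 difference was 0.95 ± 0.16 with a 95% interval from 0.59 to 1.32, but the test over all genes was missed (limma adjusted p = 0.071). Without KO replicate 3 it was 1.03 (limma adjusted p = 0.115). Timp3 lies on chromosome 10 (86300372 to 86349506, plus strand, GRCm38) inside Syn3, a gene of the opposite strand that shares 1733 of its 8144 exonic bases. The row of Syn3, a gene known from neurons, stood at 29.4, 40.0 and 27.9 FPKM in KO hearts and at 18.7, 15.4 and 16.2 FPKM in WT hearts. The sources used here do not say whether counting used the strand, so reads of the shared stretch cannot be assigned to either gene.

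Timp1, the inhibitor most readily induced by injury, had 49.2, 82.7 and 40.9 FPKM in KO hearts, against 65.0, 44.0 and 41.9 FPKM in WT hearts. Its groups overlapped, with the highest value of each genotype in KO replicate 2 and WT replicate 1, and the log2 difference was 0.17 (95% interval -0.40 to 0.74). Timp2, which together with MT1-MMP activates the proform of MMP-2, had 149, 219 and 105 FPKM in KO hearts, against 162, 114 and 93.4 FPKM in WT hearts. Here too KO replicate 2 and WT replicate 1 were highest, and the log2 difference was 0.34 (95% interval -0.27 to 0.96). It was 0.12 without KO replicate 2 and 0.59 without KO replicate 3 (limma adjusted p = 0.911 and 0.507). Timp4, the inhibitor most restricted to heart muscle, had 6.47, 4.58 and 6.10 FPKM in KO hearts, against 4.12, 6.05 and 5.10 FPKM in WT hearts. Its order was the reverse, with KO replicate 2 and WT replicate 1 lowest in their groups, and the log2 difference was 0.17 (95% interval -0.34 to 0.67).

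Ratios within a library, which do not depend on scaling, were formed for 7 pairs of members chosen after their values were seen. The ratio of Timp3 to Timp2 was 0.694, 0.695 and 0.989 in KO hearts, against 0.449, 0.504 and 0.584 in WT hearts. The ratio of Timp3 to Timp1 was 2.11, 1.84 and 2.55 in KO hearts, against 1.12, 1.31 and 1.3 in WT hearts. Both sets of ratios were higher in each KO library than in any WT library, which gives the smallest p that 3 against 3 allows (exact permutation test, two-sided, p = 0.1, or 0.175 when adjusted over the 7 pairs). They restate the separation of Timp3 and are given as a description. For Timp3 to Timp4 the groups overlapped (exact permutation p = 0.3, adjusted 0.3). The 4 Timp genes made up 52.8%, 53.8% and 52.9% of the summed FPKM of the 45 genes in KO hearts, against 44.7%, 46.7% and 47.4% in WT hearts. With Timp3 taken out of the sum, the other inhibitors held 42.7%, 43.8% and 40.0% in KO hearts and 38.1%, 39.4% and 39.4% in WT hearts. The inhibitor share was therefore above every WT library in each KO library in both forms. Without Timp3 the gap was small, from 40.0% in KO replicate 3 to 39.4% in WT replicates 2 and 3. Timp1, Timp2 and Timp4 each overlapped between the genotypes. How often other shares separate in this way was not tested.

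Among the proteoglycan-cutting ADAMTS proteinases, Adamts1 rose and Adamts4 had lower values in KO hearts. Adamts1, which cuts versican and aggrecan and binds vascular endothelial growth factor, had 20.5, 24.3 and 27.0 FPKM in KO hearts, against 11.3, 9.70 and 9.73 FPKM in WT hearts. The lowest KO library was well above the highest WT library, and the ratio of the means was 2.33. The log2 difference was 1.19 ± 0.13, with a 95% interval from 0.89 to 1.49 (limma adjusted p = 0.018). Adamts1 ranked 21 by p among the 14656 tested genes. Without KO replicate 3, which had its highest value, the log2 difference was 1.09 and the call held (limma adjusted p = 0.034). The call was lost without WT replicate 1, 2 or 3 (limma adjusted p = 0.059, 0.115 and 0.078) or without KO replicate 1 or 2 (limma adjusted p = 0.066 and 0.055), while the log2 difference stayed between 1.09 and 1.27. No other gene shares exonic bases with it in the annotation.

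Adamts4, an aggrecanase that also cuts versican, had 0.557, 1.38 and 0.806 FPKM in KO hearts, against 3.37, 2.41 and 2.71 FPKM in WT hearts. All KO libraries lay below all WT libraries, and the log2 difference was -1.26 ± 0.22 (95% interval -1.77 to -0.76), which missed the test over all genes (limma adjusted p = 0.085). Without KO replicate 3 it was -1.24 (limma adjusted p = 0.185). Adamts4 lies on chromosome 1 (171250421 to 171260637, plus strand). The ratio of Adamts1 to Adamts4 was 36.8, 17.6 and 33.5 in KO hearts, against 3.36, 4.03 and 3.60 in WT hearts. This ratio restates the separation of both genes, in opposite directions, and is given as a description.

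Adamts5, the aggrecanase that lies next to Adamts1 on chromosome 16 with 53059 bases between them, had 9.18, 10.9 and 7.25 FPKM in KO hearts, against 10.6, 9.98 and 8.37 FPKM in WT hearts. Its groups overlapped and the log2 difference was -0.08 (95% interval -0.42 to 0.27). The ratio of Adamts1 to Adamts5 was 2.23, 2.23 and 3.72 in KO hearts, against 1.07, 0.972 and 1.16 in WT hearts, and the KO and WT ratios did not overlap (exact permutation test, two-sided, p = 0.1, the smallest possible, adjusted 0.175). This ratio restates the separation of Adamts1 and is likewise given as a description. Adamts9, another versicanase, had 3.43, 4.56 and 3.62 FPKM in KO hearts, against 3.83, 3.80 and 2.72 FPKM in WT hearts (log2 difference 0.16, 95% interval -0.18 to 0.51). Adamts8 and Adamts15, which lie 20109 bases apart on chromosome 9, had means of 0.984 and 1.43 FPKM in KO hearts, against 0.717 and 1.87 FPKM in WT hearts. In KO replicate 2 Adamts8 stood at 1.91 FPKM, and in the other KO libraries at 0.395 and 0.644 FPKM. In WT replicate 1 Adamts15 stood at 3.01 FPKM, and in the other WT libraries at 1.33 and 1.25 FPKM.

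**Figure D3:**
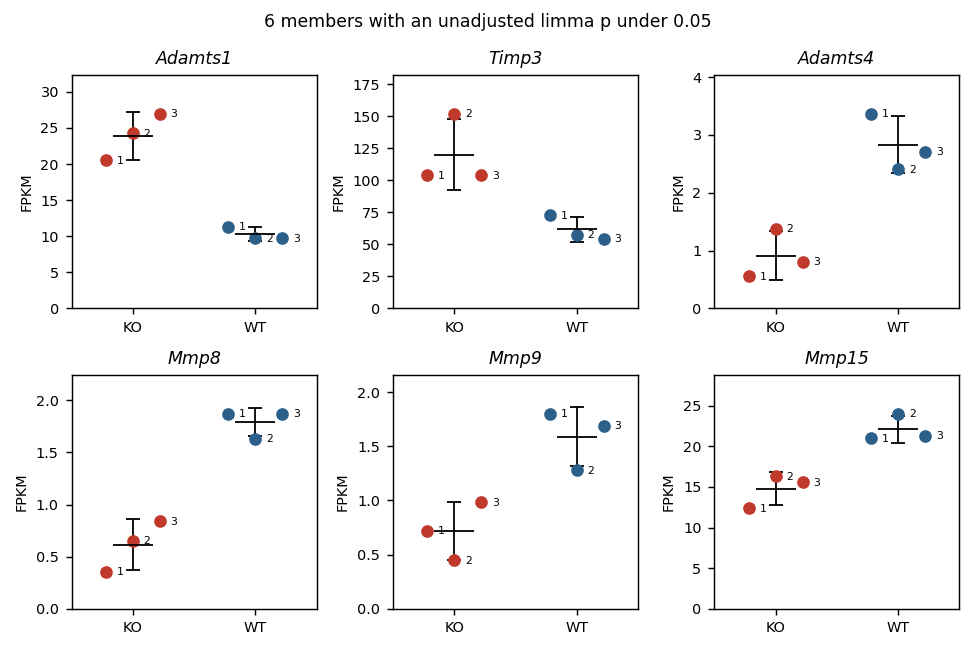
FPKM per library of the 6 members with an unadjusted p under 0.05, KO left and WT right, points numbered by replicate, with the mean and SD (n = 3 each). In each panel the genotypes are apart, with Adamts1 and Timp3 higher and Adamts4, Mmp8, Mmp9 and Mmp15 lower in KO libraries.

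Mmp8 and Mmp9, the collagenase and gelatinase that neutrophils store in granules, both had lower values in KO hearts. Mmp8 had 0.355, 0.653 and 0.840 FPKM in KO hearts, against 1.87, 1.63 and 1.87 FPKM in WT hearts. By the single annotated transcript of 2425 bases, this comes to about 6, 13 and 14 fragments in KO libraries and 43, 31 and 23 fragments in WT libraries. The log2 difference of -1.05 ± 0.21 had a 95% interval from -1.54 to -0.57, and without KO replicate 3 the log2 difference was -1.21; neither passed over all genes (limma adjusted p = 0.129 and 0.108). Mmp9 had 0.721, 0.450 and 0.983 FPKM in KO hearts, against 1.80, 1.28 and 1.69 FPKM in WT hearts. All KO libraries were again below all WT libraries, with a log2 difference of -0.78 ± 0.23 (95% interval -1.31 to -0.25, limma adjusted p = 0.336).

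The tested neutrophil markers lay on the lower side in KO hearts, as these 2 genes did. Of the 12 markers on the list, which holds neither Mmp8 nor Mmp9, 8 were tested, all 8 had log2 differences below 0, and 1, the calprotectin subunit gene S100a8, was called (log2 difference -1.24, limma adjusted p = 0.047). Its partner S100a9 differed by -1.38 and was not called (limma adjusted p = 0.178). The 8 tested markers had a median of -0.82, beside -0.004 over all tested genes. At an unadjusted p under 0.05, 4 of the 8 were lower, beside 4.68% of all tested genes. Calls as lower made up 0.102% of all tested genes. The 12 summed to 23.6, 22.8 and 42.9 FPKM in KO hearts, against 83.9, 61.8 and 58.9 FPKM in WT hearts. KO replicate 3 had the highest marker sum, the highest Mmp8 and the highest Mmp9 of the KO hearts. WT replicate 1 had the highest sum and the highest Mmp9 of the WT hearts. The order did not hold throughout. WT replicate 3 had the lowest sum of the WT hearts. Its Mmp8 and Mmp9, at 1.87 and 1.69 FPKM, were above those of WT replicate 2, at 1.63 and 1.28 FPKM. KO replicate 1 had a higher sum than KO replicate 2 but a lower Mmp8. Ly6g, which defines mouse neutrophils, was at or below 0.302 FPKM in every library and at 0 in KO replicate 3 and WT replicate 3. Elane was at 0 in all libraries but WT replicate 1. In whole-heart RNA, fewer cells of a type and less RNA per cell cannot be told apart, and the part of these markers in the Mmp8 and Mmp9 values was not tested.

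**Figure D4:**
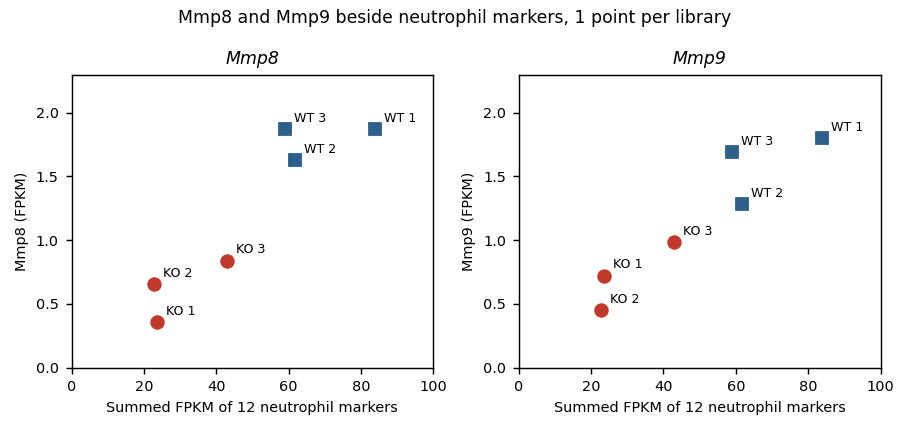
FPKM of Mmp8 (left) and Mmp9 (right) against the summed FPKM of 12 neutrophil markers, 1 point per library (circles KO, squares WT). The KO libraries, with marker sums of 22.8 to 42.9 FPKM, lie below and to the left of the WT libraries, with sums of 58.9 to 83.9 FPKM; the 6 points are descriptive and carry no test.

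Mmp2, Mmp13 and Mmp12 overlapped between the genotypes. Mmp2, the gelatinase of fibroblasts and the most abundant proteinase of the family, had 115, 175 and 79.8 FPKM in KO hearts, against 176, 96.5 and 81.3 FPKM in WT hearts. KO replicate 2 and WT replicate 1 were highest, and the 95% interval of the log2 difference ran from -0.66 to 0.83. The ratio of Mmp9 to Mmp2 overlapped between the genotypes (exact permutation test, two-sided, p = 0.2, adjusted 0.28). Mmp13, the main interstitial collagenase of rodents, had means of 0.598 ± 0.239 FPKM in KO hearts and 0.812 ± 0.293 FPKM in WT hearts (SD, n = 3 each; log2 difference -0.25, 95% interval -0.83 to 0.33). By its single annotated transcript, Mmp13 had about 13, 17 and 6 fragments in KO libraries and 27, 18 and 7 fragments in WT libraries. Mmp12, the macrophage metalloelastase, had 6.66, 5.34 and 3.89 FPKM in KO hearts, against 8.60, 3.51 and 2.96 FPKM in WT hearts. Its highest value was that of WT replicate 1, and the log2 difference was 0.19 with all libraries, 0.58 without WT replicate 1 (limma adjusted p = 0.598) and -0.0374 without WT replicate 3. All 12 monocyte and macrophage markers were tested, 10 of them had log2 differences below 0 and none was called by limma. At an unadjusted p under 0.05, 2 of them, Ccr2 and Fcgr1, were lower, beside 4.68% of all tested genes. The 12 markers summed to 729.9, 961.6 and 691.4 FPKM in KO hearts and to 1287, 866.1 and 733.5 FPKM in WT hearts, which overlapped.

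Of the stromelysins, Mmp3 had 4.29, 6.48 and 6.79 FPKM in KO hearts, against 7.19, 6.5 and 4.96 FPKM in WT hearts (log2 difference -0.08, 95% interval -0.50 to 0.35). Mmp11, which is activated inside the cell by furin, had 16.8, 14.1 and 13.7 FPKM in KO hearts, against 10.6, 17.9 and 13.8 FPKM in WT hearts (log2 difference 0.11, 95% interval -0.41 to 0.64). Both genes overlapped between the genotypes, and Mmp11 was lowest in WT replicate 1, where Mmp2 and Timp2 were highest among the WT hearts. Mmp11 shares 155 of its 2778 exonic bases with the opposite-strand gene Chchd10, which stood at 207, 134 and 171 FPKM in KO hearts and at 160, 211 and 222 FPKM in WT hearts and was likewise lowest among WT hearts in WT replicate 1. Mmp3, Mmp8, Mmp12 and Mmp13 are the 4 tested genes of a cluster of 9 members on chromosome 9 (7272514 to 7699585, GRCm38). Of these 4, Mmp8 had an unadjusted p under 0.05.

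Of the 4 tested membrane-type enzymes, Mmp15 was the 1 without overlap. Mmp15, which encodes MT2-MMP, had 12.4, 16.3 and 15.6 FPKM in KO hearts, against 21, 24.0 and 21.3 FPKM in WT hearts. All KO libraries lay below all WT libraries, with a ratio of means of 0.669 and a log2 difference of -0.56 ± 0.13 (95% interval -0.87 to -0.24, limma adjusted p = 0.225). Without KO replicate 3 the log2 difference was -0.62 (limma adjusted p = 0.265). Mmp14, which encodes MT1-MMP, the activator of pro-MMP-2, had 20.3, 32.3 and 12.8 FPKM in KO hearts, against 28.2, 20.6 and 16.4 FPKM in WT hearts. Its interval ran from -0.74 to 0.65, and the ratio of Mmp15 to Mmp14 overlapped between the genotypes (exact permutation test, two-sided, p = 0.3, adjusted 0.3). Mmp24, the MT5-MMP gene, lay within 1.67 to 1.74 FPKM in KO hearts and 1.32 to 1.79 FPKM in WT hearts. It shares 637 of its 4683 exonic bases with the opposite-strand gene BC029722, at 22.6 to 29 FPKM in KO hearts and 24 to 27.3 FPKM in WT hearts. Mmp17 had means of 0.792 FPKM in KO hearts and 0.690 FPKM in WT hearts.

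The other tested MMPs were Mmp19, Mmp23 and Mmp28. Mmp23, whose product is anchored in the membrane by its propeptide, had 14.6, 19.7 and 9.34 FPKM in KO hearts, against 14.1, 8.99 and 8.93 FPKM in WT hearts. The log2 difference was 0.41 (95% interval -0.18 to 1.00) with all libraries, 0.22 without KO replicate 2 and 0.67 without KO replicate 3 (limma adjusted p = 0.741, 0.820 and 0.373). Mmp19 had 5.51, 6.63 and 3.92 FPKM in KO hearts, against 7.5, 2.89 and 3.04 FPKM in WT hearts. Its highest value was that of WT replicate 1, and the log2 difference was 0.34 with all libraries (limma adjusted p = 0.839). It was 0.70 without WT replicate 1, 0.13 without WT replicate 2 and 0.19 without WT replicate 3. Mmp19 shares 789 of its 3533 exonic bases with the opposite-strand gene Tmem198b, at 4.92 to 5.37 FPKM in KO hearts and 3.36 to 4.59 FPKM in WT hearts. Mmp28, or epilysin, had means of 3.13 ± 1.06 FPKM in KO hearts and 3.16 ± 0.449 FPKM in WT hearts (SD, n = 3 each).

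The procollagen N-propeptidases, which trim fibrillar procollagens before they assemble, did not separate by genotype. Adamts2, the most abundant of the ADAMTS genes, had 21.8, 38.2 and 20.7 FPKM in KO hearts, against 35.7, 19.2 and 15.3 FPKM in WT hearts (log2 difference 0.25, 95% interval -0.45 to 0.95). KO replicate 2 and WT replicate 1 were again the high libraries, and the log2 difference was 0.0155 without KO replicate 2 and 0.54 without WT replicate 1. Adamts3 had means of 0.834 FPKM in KO hearts and 1.13 FPKM in WT hearts. Adamts7 and Adamts12, which cut cartilage oligomeric matrix protein, had means of 2.5 and 3.92 FPKM in KO hearts, against 2.35 and 3.06 FPKM in WT hearts. Adamts10, linked to fibrillin microfibrils, had 6.88, 8.89 and 5.84 FPKM in KO hearts, against 9.22, 7.5 and 5.72 FPKM in WT hearts (log2 difference -0.03, 95% interval -0.44 to 0.37). Adamts6, its closest relative, lay within 0.912 to 1.26 FPKM in KO hearts and 0.951 to 1.12 FPKM in WT hearts.

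Within each genotype 1 library tended to be the highest. KO replicate 2 was the highest KO library for 20 of the 30 tested members (66.7%) and WT replicate 1 the highest WT library for 20 of them (66.7%), where all tested genes gave 37.5% and 36.0%. Both held for the same gene in 17 members (56.7%), beside 18.2% of all tested genes. These ranks used scaled FPKM, while the sums that follow are of unscaled FPKM. The scaling factors of KO replicate 2 and WT replicate 1, 1.062 and 1.075, were the largest, so unscaled sums read higher in these libraries. Fibroblast markers followed the same order, summing to 1816, 2333 and 1537 FPKM in KO hearts and to 2078, 1429 and 1308 FPKM in WT hearts. The sums of 21 genes of matrix proteins that these enzymes cut were 3326, 5071 and 2418 FPKM in KO hearts and 4124, 2495 and 2151 FPKM in WT hearts. That list shares Dcn, Lum and Col1a1 with the fibroblast markers. The order was not particular to fibroblast markers. KO replicate 2 and WT replicate 1 also had the highest sums of monocyte and macrophage (961.6 and 1287 FPKM), chondrocyte-like (198.7 and 178.7 FPKM) and mast cell markers (8.70 and 14.1 FPKM). Neutrophil and myofibroblast sums were not highest in KO replicate 2. Cardiomyocyte markers ran the other way, with the lowest KO sum in KO replicate 2 (7543 FPKM) and the lowest WT sum in WT replicate 1 (9421 FPKM). Of the 8 tested fibroblast markers, 7 had log2 differences above 0, with a median of 0.33, and none was called by limma, while 1, Tcf21, had an unadjusted p under 0.05. The part of cell makeup in the values of the members was not tested. Adamts1 had this order in WT hearts, with WT replicate 1 highest, but among KO hearts KO replicate 3 was highest.

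**Figure D5:**
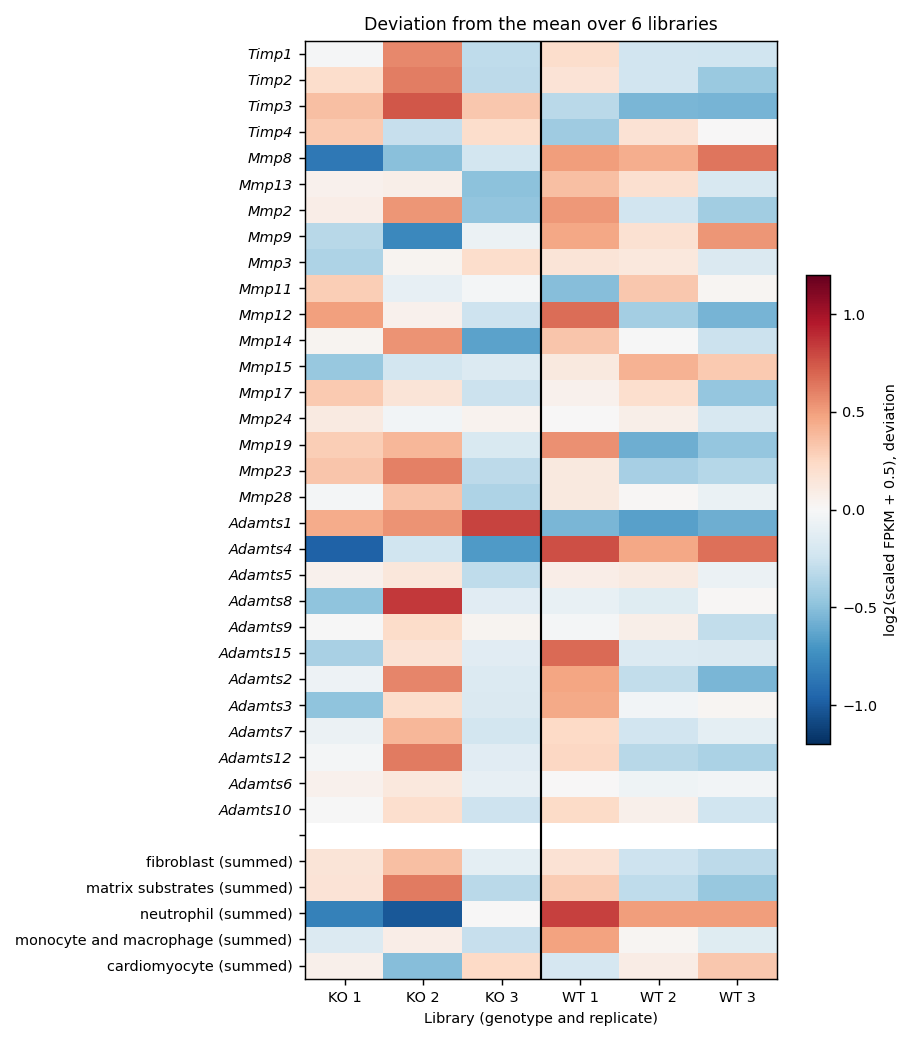
Deviation of the 30 tested members, and below them of 5 summed gene lists, from their mean over the 6 libraries, in log2(scaled FPKM + 0.5); columns are KO libraries (left) and WT libraries (right). KO 2 is the highest KO column and WT 1 the highest WT column for 17 members, Timp3 among them. The same holds for the fibroblast, matrix, and monocyte and macrophage sums. Adamts1, Timp3, Adamts4, Mmp8, Mmp9 and Mmp15 separate by genotype.

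Related genes outside the family were read in the same way. Plaur, the urokinase receptor gene of the plasminogen route of MMP activation, had 5.47, 3.98 and 4.37 FPKM in KO hearts, against 2.48, 2.90 and 1.51 FPKM in WT hearts. Its log2 difference was 0.91 ± 0.22 and it was not called (limma adjusted p = 0.238). Plau, which encodes urokinase itself, lay the other way without overlap, with 2.59, 2.94 and 3.11 FPKM in KO hearts, against 4.82, 4.86 and 3.56 FPKM in WT hearts, and was not called either (log2 difference -0.52 ± 0.14, limma adjusted p = 0.295). Of 8 tested ADAM proteases none was called by limma and 2 had an unadjusted p under 0.05, 1 on each side. Over all tested genes 3.8% lay on the higher and 4.68% on the lower side at that threshold. Adam19 had 5.42, 9.21 and 5.37 FPKM in KO hearts, against 15.8, 13.4 and 13.4 FPKM in WT hearts (log2 difference -1.07 ± 0.18, limma adjusted p = 0.076), and Adam15 differed by 0.37 ± 0.11 (limma adjusted p = 0.374).

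The substrates gave no call, and their log2 differences lay mostly above 0. Of 17 tested matrix substrates, none was called by limma and none had an unadjusted p under 0.05, while 16 had log2 differences above 0 and the median was 0.26. The smallest p values among them were those of Lum, the proteoglycan lumican, and Spp1, osteopontin, with log2 differences of 0.45 ± 0.25 and 0.49 ± 0.30 (limma adjusted p = 0.704 and 0.740). None of 6 tested ADAMTS-like genes, of which Adamtsl4 and Adamtsl3 had the smallest p (limma adjusted p = 0.719 and 0.811), and none of 3 tested genes of procollagen processing, led by Pcolce and Pcolce2 (limma adjusted p = 0.759 and 0.855), was called by limma or had an unadjusted p under 0.05.

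Markers of other cell types were read beside the members. Mast cell markers, 5 of 7 tested, had a median of -0.83 and summed to 6.04, 8.70 and 4.87 FPKM in KO hearts, against 14.1, 12.5 and 8.88 FPKM in WT hearts. None was called by limma, and 4 had an unadjusted p under 0.05, all on the lower side, where 4.68% of all tested genes lay. The smallest p values were those of the proteases Cma1 and Tpsb2 (limma adjusted p = 0.237 and 0.287). Kit, the other tested mast cell marker, lay the other way (log2 difference 0.20, limma adjusted p = 0.824). Fcer1a and Ms4a2 did not pass the filter and were at or below 0.16 FPKM in every library. Of 6 endothelial markers, 5 had log2 differences above 0, with a median of 0.09 over the 6, and none was called by limma. The other one, the receptor gene Kdr, had an unadjusted p under 0.05 (log2 difference -0.55, limma adjusted p = 0.195). The 5 chondrocyte-like markers, all with log2 differences above 0 and a median of 0.43, gave no call by limma and 1 unadjusted p under 0.05, that of Chad (log2 difference 1.40 ± 0.31, limma adjusted p = 0.175). Of 4 myofibroblast, 5 mural, 8 cardiomyocyte and 2 tested adipocyte markers none was called by limma or had an unadjusted p under 0.05. Their part in the values of the members was not tested.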

How the data were processed

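Whole hearts of 3 KO and 3 WT mice were frozen and extracted with Trizol; per the labels, libraries came from a TruSeq kit of Illumina. The authors deposited 1 table titled as counts, but its values are taken as FPKM. Between 37.2% and 40.4% of each library's entries carry decimals, and FPKM times length of single-transcript genes falls only in part on whole steps. Bowtie 0.12.2 and the builds mm8 and mm9 are named, without roles, by the submitters' processing notes. For the quantification tool, annotation, filters and use of strand the entry is: not given in the sources used here. Of 52550 identifiers, 52403 matched GENCODE M21 (GRCm38), which supplied symbols, types and coordinates; nothing was converted between builds.

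The filter required 0.5 FPKM in 3 libraries. Each library was divided by a factor (0.949 to 1.07) from log2 ratios trimmed at 0.3 and levels trimmed at 0.05. limma 3.58.1 in R 4.3.3 was fitted to log2(FPKM / factor + 0.5) with genotype as the term and a mean trend, and its two-sided p-values were adjusted by Benjamini-Hochberg across the tested genes. The fit was tested on simulated data. No label says that the hearts came from separate litters, so the p-values reflect spread among these 6 samples, which may be technical. Whole fragments were not recovered (28.7% to 29.6% of values below 5 fragments lay within 0.02 of a whole number), so fragment numbers are approximate and carry no interval. Ratios used exact permutation tests (SciPy 1.17.1). Values in every library are given for members with a mean of 5 FPKM or more in either group or an unadjusted p under 0.05, for all Timp genes and for Mmp8, Mmp9 and Mmp12; of the other lists, genes called or of smallest p are named. The single values of Adamts8, Adamts9 and Adamts15, the ratio pairs and the motifs were chosen after values were seen. The members and lists were chosen with earlier results of these data known. Promoter sequences are from RefSeq (GRCm38.p6). Some items, among them genes on the list of activators and inhibitors outside the TIMPs, are not reported here.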

Additional observations from a re-analysis of the deposited data

How the results depend on the processing

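Adamts1 stayed called under other scaling (none, median of ratios, upper quartile), pseudocounts of 0.1 and 1, no filter, a filter at an FPKM of 1 and a robust fit (limma adjusted p from 0.015 to 0.046). With the replicate number as a block (replicate block) its limma adjusted p was 0.052 and 0 members were called; with 1 library left out 0 to 1 were. The numbers share no stated origin, and deviations of same-numbered libraries correlated at 0.008, -0.04 and 0.18 across genes, so they were not taken as pairs; not every library correlated best with its own number, as KO replicate 2 did so with WT replicate 1 (0.19). Over all genes, 55 were called in the fit reported, 42 with the block, 20 without a filter, and 12 to 36 with 1 library left out. The number of members with an unadjusted p under 0.05 was 6 in the 9 alternatives that kept all libraries and 6 to 8 with 1 left out. Mmp8, Mmp9, Mmp15, Adamts4 and Timp3 kept their direction in all 15 alternatives and were called in none, with Timp3 at a limma adjusted p from 0.067 to 0.308, Adamts4 from 0.073 to 0.282, Mmp8 from 0.108 to 0.362, Mmp9 from 0.261 to 0.619 and Mmp15 from 0.207 to 0.688. With 1 library left out, 15 uncalled members changed sign, and their log2 differences ran from -0.17 to 0.0828 for Adamts10, -0.38 to 0.0514 for Adamts15, -0.16 to 0.0556 for Adamts5, -0.11 to 0.21 for Adamts7, -0.23 to 0.43 for Adamts8, -0.11 to 0.30 for Mmp11, -0.0374 to 0.58 for Mmp12, -0.33 to 0.26 for Mmp14, -0.0566 to 0.31 for Mmp17, -0.16 to 0.37 for Mmp2, -0.00358 to 0.13 for Mmp24, -0.21 to 0.14 for Mmp28, -0.20 to 0.0865 for Mmp3, -0.0757 to 0.37 for Timp1 and -0.0077 to 0.35 for Timp4; the cause was not tested. Without a change of sign, they ran from 0.0155 to 0.54 for Adamts2, 0.077 to 0.51 for Adamts12, -0.47 to -0.13 for Adamts3, 0.00921 to 0.12 for Adamts6, 0.0549 to 0.24 for Adamts9, -0.41 to -0.061 for Mmp13, 0.13 to 0.70 for Mmp19, 0.22 to 0.67 for Mmp23 and 0.12 to 0.59 for Timp2. Depth limits Mmp8 and Mmp13, each at about 6 fragments in its lowest library.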
